A study of Mus musculus with 12 samples.

Results

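Skeletal muscle genes were followed in palatal shelves of mouse embryos at gestational day 12, the pair of tissue folds that later meet to close the palate. They were 43 of the 56691 genes in the deposited tables, chosen by symbol, and 40 of them had enough counts to be tested. Myf6, Tcap and Ckm did not pass the filter on low counts. RNA was sequenced in 12 libraries, 3 for each of 4 groups, every library from the pooled shelves of 2 embryos and every group from 6, per the labels' protocols, whereas the series' design text speaks of 3 pooled animals. The knockout group was untreated and carried a conditional knockout of Dnmt1, the methyltransferase that copies DNA methylation onto new DNA. The AzadC group was wild type (WT) and had received 5-aza-2'-deoxycytidine, a cytosine analogue that traps DNA methyltransferases. The vehicle group was WT and had received the vehicle of that drug. The control group was WT and untreated. The Cre driver, the cells that recombine, the deleted exons and the dose, route and time of AzadC were not given in the sources used here.

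Skeletal muscle of the head and trunk arises from precursors marked by Pax3 or Pax7. The basic helix-loop-helix factors Myf5 and Myod1 commit these cells to muscle, and Myog drives their differentiation and fusion into fibres. The fibres build sarcomeres, in which thick filaments of myosin slide along thin filaments of actin, held by Z-discs, M-bands and the giant proteins titin and nebulin. A nerve signal is received at the endplate by acetylcholine receptors and passed to the calcium release channel. In the head, the muscles of the soft palate form towards the back of the palate, and the tongue lies between the shelves at this stage. The members were read by role, as precursor factors (5), differentiation and fusion genes (4), thick filament and M-band genes (9), thin filament and Z-disc genes (14), endplate and calcium release genes (7) and genes of assembly and energy supply (4).

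The promoter windows of 4 members are shown because these genes are known to be controlled by muscle regulators and span the roles: Myog is itself a regulator, Chrna1 belongs to the endplate, Myh3 to the thick filament and Actc1 to the thin filament. Each is the stretch of 250 bases before the RefSeq start on GRCm38.p6 (mm10), read 5′ to 3′ on the gene's strand. Capitals mark the E-box CANNTG, the letters that muscle basic helix-loop-helix factors bind, or the CArG box, the letters that serum response factor binds. The windows are chr1:134289754-134290003 on the plus strand for Myog, chr2:73580339-73580588 on the minus strand for Chrna1, chr11:67078050-67078299 on the plus strand for Myh3 and chr2:114052876-114053125 on the minus strand for Actc1.
Myog: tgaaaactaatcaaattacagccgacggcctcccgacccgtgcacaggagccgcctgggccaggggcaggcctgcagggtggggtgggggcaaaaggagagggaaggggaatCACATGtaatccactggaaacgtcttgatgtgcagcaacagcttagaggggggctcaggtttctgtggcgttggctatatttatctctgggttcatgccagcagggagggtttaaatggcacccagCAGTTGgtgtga
Chrna1: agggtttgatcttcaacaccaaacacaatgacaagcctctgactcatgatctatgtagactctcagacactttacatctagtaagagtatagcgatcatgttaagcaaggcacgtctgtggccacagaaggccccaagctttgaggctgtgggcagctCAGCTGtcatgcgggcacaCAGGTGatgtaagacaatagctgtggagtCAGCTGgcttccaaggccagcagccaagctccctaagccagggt
Myh3: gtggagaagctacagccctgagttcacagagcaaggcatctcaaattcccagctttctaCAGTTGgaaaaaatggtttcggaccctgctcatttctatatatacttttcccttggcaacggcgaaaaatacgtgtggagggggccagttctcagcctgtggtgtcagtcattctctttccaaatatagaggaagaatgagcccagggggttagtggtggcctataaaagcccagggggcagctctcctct
Actc1: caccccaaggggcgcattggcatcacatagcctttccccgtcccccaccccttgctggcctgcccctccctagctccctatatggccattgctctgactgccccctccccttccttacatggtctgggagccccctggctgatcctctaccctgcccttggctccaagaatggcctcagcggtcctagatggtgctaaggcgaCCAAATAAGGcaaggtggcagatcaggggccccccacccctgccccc
The Myog window held 2 E-boxes, CACATG starting at -138 and CAGTTG at -12, counted back from -1, the last base before the start. In the Chrna1 window there were 3, CAGCTG at -92, CAGGTG at -73 and CAGCTG at -44, and the Myh3 window had 1, CAGTTG at -191. The Actc1 window held no E-box and 1 CArG box, CCAAATAAGG at -47. RefSeq windows were found for 30 of the 43 genes, 33 windows in all since some genes have more than 1 listed start. Both strands were searched. Some E-box letters were in 27 of the 33 windows (81.8%), against 66.2% of all 32851 windows of the same length, so their presence is common to most promoters. The E-box CAGCTG, which is counted within the first motif too, was in 13 windows (39.4%), against 13.0% of all windows. The CArG box was in 3 (9.09%), against 1.47%. These are matches of letters, and binding was not measured.

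The deposited gene totals ran from 12640536 to 33113790 expected counts per library. Dnmt1 itself stood at 64.7, 57.2 and 61 TPM in the knockout libraries, 134, 152 and 133 TPM in the AzadC libraries, 147, 144 and 150.0 TPM in the vehicle libraries and 91.5, 93.5 and 86.8 TPM in the control libraries. Its log2 change in knockout against control was -0.52 (adjusted p = 0.000369 in edgeR), and reads of Dnmt1 remained. The 3 control libraries lay below all 6 AzadC and vehicle libraries. Markers of palatal mesenchyme were present in every library: the patterning factor Barx1 ran from 132 to 279.9 TPM and Osr2 from 43 to 169 TPM. The libraries of a group were uneven in muscle RNA. Control 3 had the least and knockout 1 the most.

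Most muscle genes moved together across the 12 libraries, within groups as well as between them. Knockout 1 was the highest library for 39 of the 40 tested genes, Pax3 being the exception, and control 3 was the lowest for 33. Vehicle 2 was the second highest for 14 genes, and it exceeded knockout 3 for 38 of 40 genes, with a median ratio of 2.19. The mean of the genes' log2 CPM, each centred on its own mean over all libraries, stood at 2.94, 1.85 and 0.59 in the knockout libraries. It was -1.10, -1.14 and 0.68 in the AzadC libraries, -0.53, 1.68 and -1.16 in the vehicle libraries and 0.01, -0.90 and -2.94 in the control libraries. The ranges of the groups overlapped in every pairing except knockout and control, where all 3 knockout libraries lay above all 3 control libraries. All members together took 0.179% of the counts of knockout 1 and 0.00309% of those of control 3. In shelves sequenced in bulk, fewer muscle cells and less muscle RNA per cell cannot be told apart.

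**Figure D1:**
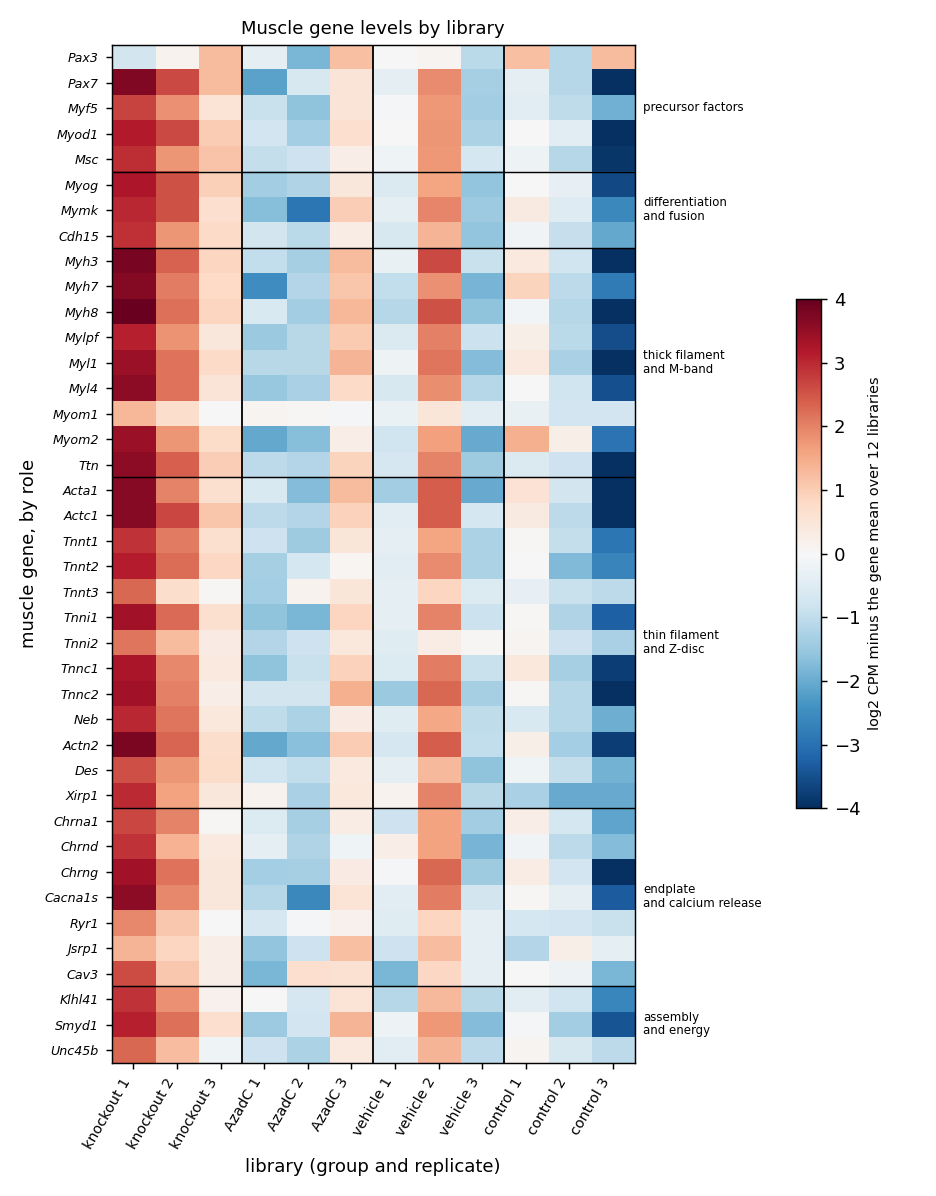
Level of the 40 tested muscle genes (rows, ordered by role) in each of the 12 libraries (columns, by group), as log2 CPM minus the gene's mean over all libraries; red is above the mean and blue below, and values beyond the ends of the scale take the end colour. Knockout 1 and vehicle 2 are red in nearly every row and control 3 is blue in most, and this holds from precursor factors to sarcomere genes, while Pax3 departs from it and the order of the libraries between these extremes varies from gene to gene.

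Knockout against control was the comparison that asks what the loss of Dnmt1 changes in the shelves. Of the 40 tested muscle genes 24 were higher in the knockout, and 0 were lower, with edgeR's quasi-likelihood test at an adjusted p below 0.05 over all genes. Among all 17335 genes tested, 7.83% were higher and 6.43% lower by the same rule. The median log2 change of the 40 genes was 3.06, against -0.0026 for all genes tested. In 34 of the 40 genes all 3 knockout libraries exceeded all 3 control libraries, as they did in 16.9% of all genes tested, and in 0 genes did all 3 lie below, as in 15.1% of all genes tested. A gene may pass the filter through 1 group alone, so that these counts describe the genes that passed and not all 43. The calls turned on a few libraries: without knockout 1, or without control 2, only Myom1, Neb, Xirp1 and Ryr1 were still called, 11 of the 24 passed without knockout 2 and 6 without control 3. The other 20 calls, among them every call in the precursor, differentiation and assembly groups, were thus lost without knockout 1 and likewise without control 2.

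Among the precursor factors, 4 of 5 were higher in knockout than in control libraries. Myod1 had 35.7, 24.6 and 7.88 CPM in the knockout libraries, 2.21, 1.45 and 6.24 CPM in the AzadC libraries, 3.77, 13.3 and 1.53 CPM in the vehicle libraries and 3.94, 2.83 and 0 CPM in the control libraries. All 3 knockout libraries lay above all control libraries, while vehicle 2 lay above knockout 3. The log2 change of Myod1 in the knockout against the control was 3.25 ± 0.92 (SE, adjusted p = 0.0322 in edgeR). Pax7, the mark of muscle stem cells and of cranial muscle precursors, had 18.6, 9.01 and 3.38 CPM in the knockout libraries, 0.236, 0.848 and 1.97 CPM in the AzadC libraries, 1.05, 5.27 and 0.484 CPM in the vehicle libraries and 1.04, 0.575 and 0 CPM in the control libraries. The knockout libraries did not overlap with the control libraries, and 0 counts of Pax7 were found in control 3. Pax7 rose by 4.12 ± 0.99 log2 units (SE, adjusted p = 0.0141 in edgeR). Msc, musculin, a repressor of the same helix-loop-helix family found in jaw muscle precursors, had 23.6, 10.3 and 6.64 CPM in the knockout libraries, 1.5, 1.64 and 3.61 CPM in the AzadC libraries, 2.6, 10 and 1.77 CPM in the vehicle libraries and 2.53, 1.3 and 0.114 CPM in the control libraries, again with no overlap between knockout and control. It rose by 3.27 ± 0.79 log2 units (SE, adjusted p = 0.0141 in edgeR). Myf5 rose by 3.07 ± 0.83 log2 units (SE, adjusted p = 0.0261 in edgeR) and ran from 1.66 to 7.72 CPM in the knockout and from 0.228 to 0.805 CPM in the control. Pax3, which marks precursors that migrate into limb and tongue and is also made in the early neural crest, was the gene that did not follow. It had 0.228, 0.492 and 1.19 CPM in the knockout libraries, 0.315, 0.0606 and 1.14 CPM in the AzadC libraries, 0.433, 0.482 and 0.161 CPM in the vehicle libraries and 1.13, 0.153 and 1.2 CPM in the control libraries. Its highest values were in knockout 3, AzadC 3, control 1 and control 3, and knockout 1 was among the low ones. Its log2 change of -0.40 ± 0.85 (SE, adjusted p = 0.814 in edgeR) did not pass the test, and it rested on 35 counts in the knockout and 63 in the control.

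**Figure D2:**
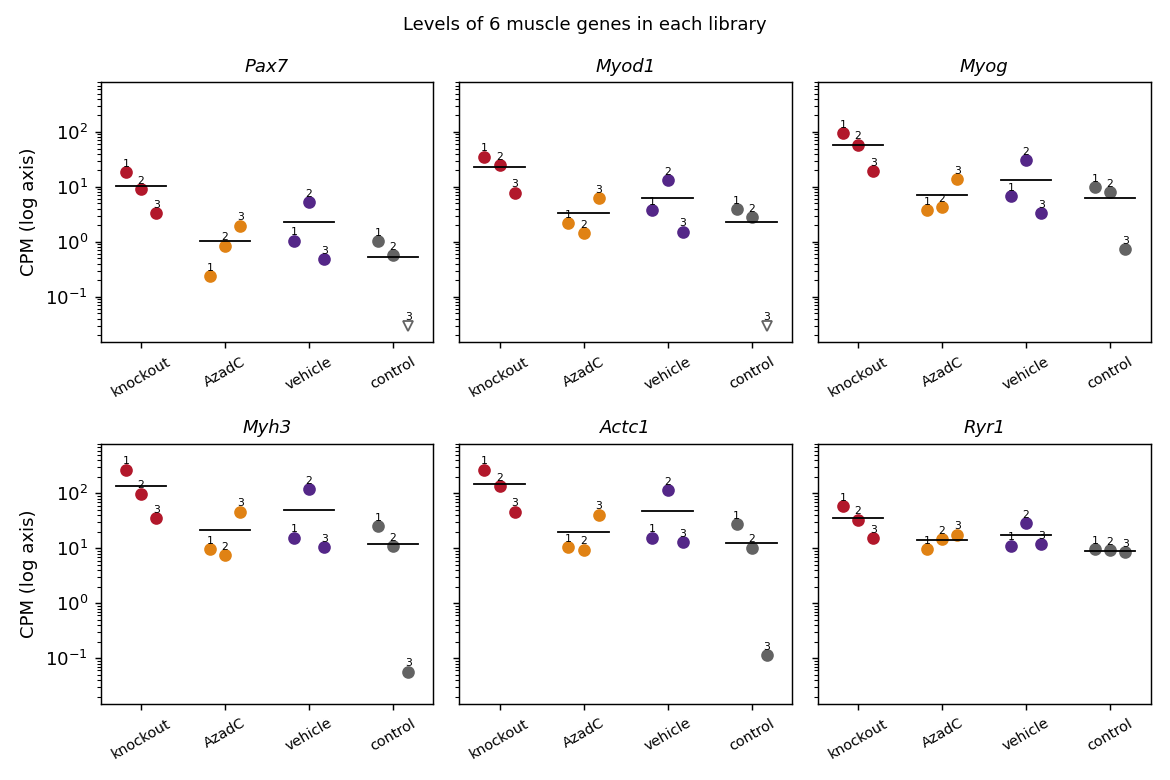
CPM on a log axis of 6 muscle genes in each library; points are libraries, numbered by replicate, black lines are group means over 3 libraries, and open triangles at the bottom mark libraries with 0 counts. In Pax7, Myod1, Myog, Myh3 and Actc1 knockout 1 is highest and control 3 far below the rest, whereas Ryr1 ran only from 8.5 to 59.2 CPM.

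Differentiation and fusion genes followed the precursor factors, with 2 of 3 tested genes higher. Myog, myogenin, had 94.7, 58.9 and 19.4 CPM in the knockout libraries, 3.78, 4.3 and 13.7 CPM in the AzadC libraries, 6.74, 30.3 and 3.35 CPM in the vehicle libraries and 9.99, 7.93 and 0.742 CPM in the control libraries. Each knockout library was above each control library, and vehicle 2 was above knockout 3. Myog rose by 3.15 ± 0.86 log2 units (SE, adjusted p = 0.0269 in edgeR). Cdh15, M-cadherin, which joins muscle cells to each other, averaged 21.7 ± 15.6 CPM in knockout and 2.78 ± 1.71 CPM in control libraries (SD, n = 3 each), and rose by 2.92 ± 0.74 log2 units (SE, adjusted p = 0.0186 in edgeR). Mymk, myomaker, the membrane protein that fuses myoblasts, averaged 8.03 ± 5.18 CPM in knockout and 1.03 ± 0.884 CPM in control libraries (SD, n = 3 each), with a log2 change of 2.87 ± 1.02 (SE, adjusted p = 0.0803 in edgeR) that did not pass. Myf6, the regulator of later fibres that lies 6719 bases from Myf5 on chromosome 10, had 17 counts over the knockout libraries and 1 over the control libraries. That is a ratio of 21.7 with an exact 95% interval of 3.40 to 907 that covers counting error only.

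Of the thick filament and M-band genes, 4 of 9 were higher in knockout than in control libraries. Myh3, the embryonic myosin heavy chain, had 269, 99.1 and 35.1 CPM in the knockout libraries, 9.77, 7.57 and 46.5 CPM in the AzadC libraries, 15.5, 121 and 10.4 CPM in the vehicle libraries and 25.4, 11 and 0.0571 CPM in the control libraries. Vehicle 2 was the second highest library, above knockout 2 and knockout 3, and control 3 was close to 0. Its log2 change of 3.40 ± 1.14 (SE, adjusted p = 0.0637 in edgeR) did not pass. Myh8, the perinatal myosin heavy chain, averaged 19.2 ± 19 CPM in knockout and 1.16 ± 1.18 CPM in control libraries (SD, n = 3 each) and rose by 3.93 ± 1.21 log2 units (SE, adjusted p = 0.0467 in edgeR). Ttn, titin, which spans the sarcomere from Z-disc to M-band, averaged 72.5 ± 57.8 CPM in knockout and 4.84 ± 3.76 CPM in control libraries (SD, n = 3 each) and rose by 3.83 ± 0.97 log2 units (SE, adjusted p = 0.019 in edgeR). Both had their lowest level in control 3. Myl4, an embryonic light chain, rose by 3.40 ± 0.99 log2 units (SE, adjusted p = 0.0359 in edgeR). Myom1, myomesin of the M-band, was far steadier than the others and had 24.9, 16.1 and 9.96 CPM in the knockout libraries, 10.7, 10.2 and 9.45 CPM in the AzadC libraries, 8.23, 13.8 and 7.22 CPM in the vehicle libraries and 8.11, 5.78 and 5.82 CPM in the control libraries. The knockout and control libraries did not overlap. It rose by 1.37 ± 0.30 log2 units (SE, adjusted p = 0.00944 in edgeR), the smallest change among the genes called and 1 of 4 that were called whichever library was left out. Myom1 shares exon sequence with Myl12a, a widely expressed light chain on the opposite strand, and the strand setting of the counting was not stated. Exons of other genes on the opposite strand also overlap Ryr1, Neb, Msc, Myl4, Ttn and Des among the genes called. The same holds for Myh7, Tnnc2, Cacna1s, Unc45b and Ckm. The slow or cardiac heavy chain Myh7 (log2 change 2.90, edgeR adjusted p = 0.1), the light chains Mylpf (2.92, 0.0616) and Myl1 (3.25, 0.0646) and Myom2 (2.04, 0.237) did not pass.

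In the thin filament and Z-disc, 10 of 13 tested genes were higher in knockout than in control libraries. Actc1, cardiac alpha-actin, which is also the main sarcomeric actin of embryonic skeletal muscle, was the most abundant member per transcript length and had 269, 136 and 46.7 CPM in the knockout libraries, 10.4, 9.45 and 40.8 CPM in the AzadC libraries, 15.7, 114 and 13.1 CPM in the vehicle libraries and 27.5, 10.3 and 0.114 CPM in the control libraries. Knockout 1 stood highest, and vehicle 2 was between knockout 2 and knockout 3. Actc1 rose by 3.50 ± 1.05 log2 units (SE, adjusted p = 0.0414 in edgeR), a call that was lost without any 1 of knockout 1, knockout 2, AzadC 1, control 2 and control 3. Neb, nebulin, the ruler of the thin filament, had 71.7, 38.8 and 11.9 CPM in the knockout libraries, 4.33, 3.63 and 11.2 CPM in the AzadC libraries, 6.25, 26 and 4.27 CPM in the vehicle libraries and 5.78, 3.95 and 2.23 CPM in the control libraries. No control library reached any knockout library. It rose by 3.32 ± 0.75 log2 units (SE, adjusted p = 0.00989 in edgeR) and was called in all 12 fits that left out 1 library. Tnnt2, the troponin T of heart and embryonic skeletal muscle, averaged 15.2 ± 10.6 CPM in knockout and 1.37 ± 1.34 CPM in control libraries (SD, n = 3 each) and rose by 3.39 ± 0.86 log2 units (SE, adjusted p = 0.0185 in edgeR). Des, desmin, the intermediate filament that links Z-discs, averaged 22.9 ± 13.5 CPM in knockout and 3.38 ± 1.93 CPM in control libraries (SD, n = 3 each) and rose by 2.72 ± 0.69 log2 units (SE, adjusted p = 0.0182 in edgeR). Xirp1, an actin-binding protein of growing fibres, had 89 counts over the knockout libraries and 2 over the control libraries, a ratio of 56.8 with an exact 95% counting interval of 15.3 to 476 (edgeR adjusted p = 0.0103). Its levels were 2.79, 1.03 and 0.415 CPM in the knockout libraries, 0.315, 0.0606 and 0.401 CPM in the AzadC libraries, 0.309, 1.35 and 0.0807 CPM in the vehicle libraries and 0.0596, 0 and 0 CPM in the control libraries. Knockout 3 was close to AzadC 3 and below vehicle 2, and control 2 and control 3 had no count.

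Slow and fast troponin genes alike were among those called. The slow or cardiac forms Tnnt1 and Tnni1 rose by 2.93 and 3.37 on the log2 scale (edgeR adjusted p = 0.0271 and 0.0340), and the fast forms Tnnt3 and Tnni2 by 2.18 and 2.10 (0.0373 and 0.0275). Actn2, alpha-actinin of the Z-disc, rose by 3.57 (0.0491), close to the threshold. Tnnc1 (2.98, 0.0656), Tnnc2 (3.38, 0.0706) and Acta1, the adult skeletal actin (3.03, 0.111), had log2 changes of like size that did not pass. Tcap, telethonin, which caps titin at the Z-disc, had 33 counts in the knockout and 10 in the control. Some of these genes are neighbours: Tnnt2 lies 25365 bases from Tnni1 on chromosome 1, and Tnnt3 lies 54426 bases from Tnni2 on chromosome 7.

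Of the endplate and calcium release genes, 2 of 7 were higher in knockout than in control libraries. Ryr1, the calcium release channel of the sarcoplasmic reticulum, had 59.2, 33.2 and 15.4 CPM in the knockout libraries, 9.77, 14.8 and 17.8 CPM in the AzadC libraries, 11.2, 28.6 and 12.1 CPM in the vehicle libraries and 9.6, 9.23 and 8.5 CPM in the control libraries. The control libraries were close to each other and below every knockout library. Ryr1 rose by 1.98 ± 0.44 log2 units (SE, adjusted p = 0.00881 in edgeR). Chrnd, the delta subunit of the muscle acetylcholine receptor, averaged 3.86 ± 3.33 CPM in knockout and 0.505 ± 0.326 CPM in control libraries (SD, n = 3 each) and rose by 2.86 ± 0.83 log2 units (SE, adjusted p = 0.0349 in edgeR). Chrng, the gamma subunit of the fetal receptor, lies 4587 bases away on chromosome 1 and averaged 7.67 ± 6.5 CPM in knockout and 0.822 ± 0.851 CPM in control libraries (SD, n = 3 each), with a log2 change of 3.11 ± 1.04 (SE, adjusted p = 0.0633 in edgeR). Chrna1, the alpha subunit, had 14.9, 9.25 and 2.31 CPM in the knockout libraries, 1.5, 0.848 and 2.81 CPM in the AzadC libraries, 1.24, 6.97 and 0.807 CPM in the vehicle libraries and 2.74, 1.34 and 0.456 CPM in the control libraries. Control 1 exceeded knockout 3, and the log2 change of 2.49 ± 0.83 (SE, adjusted p = 0.0631 in edgeR) did not pass. Cacna1s, the voltage sensor (3.27, edgeR adjusted p = 0.0578), Cav3, muscle caveolin (2.52, 0.118), and Jsrp1, a protein of the junction between tubule and reticulum (1.74, 0.293), had positive log2 changes that did not pass either.

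Of the genes for assembly and energy supply, 2 of 3 tested were higher. Smyd1, a methyltransferase needed to build myofibrils, averaged 14.1 ± 10.1 CPM in knockout and 1.26 ± 1.25 CPM in control libraries (SD, n = 3 each) and rose by 3.38 ± 0.99 log2 units (SE, adjusted p = 0.0365 in edgeR). Klhl41, which stabilises nebulin, averaged 11.8 ± 9.4 CPM in knockout and 1.37 ± 0.882 CPM in control libraries (SD, n = 3 each) and rose by 3.04 ± 0.79 log2 units (SE, adjusted p = 0.0205 in edgeR). Unc45b, the myosin chaperone, had a log2 change of 1.90 ± 0.68 (SE, adjusted p = 0.0827 in edgeR). Ckm, muscle creatine kinase of mature fibres, had 0 counts in the knockout libraries and 1 in the control libraries, so no fold is given. For a group at 0, a count of up to 3 remains possible, which is 0.0501 CPM in the knockout.

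The second comparison set the same knockout libraries against the vehicle libraries, so it is not independent of the first. None of the 40 genes passed in either direction with edgeR, although 6.7% of all genes tested were higher and 4.13% lower. All 40 log2 changes were positive, from 0.63 for Jsrp1 to 2.14 for Pax7, with a median of 1.62. With no adjustment, 11 genes had a p below 0.05 in edgeR, all of them higher. By that rule 2347 of all 17335 genes tested were higher and 1972 lower. DESeq2 called 1 gene, Myom1 (adjusted p = 0.0467), and limma-voom called 0. Only Tnni2 had all 3 knockout libraries above all 3 vehicle libraries, an arrangement seen in 16% of all genes tested, and 0 had all 3 below, as 14.4% of all genes tested did. Myog averaged 57.7 ± 37.6 CPM in knockout and 13.5 ± 14.7 CPM in vehicle libraries (SD, n = 3 each), with a log2 change of 2.07 ± 0.81 (SE, adjusted p = 0.129 in edgeR). Vehicle 2 alone carried much of the vehicle level: it was above vehicle 1 for 40 of 40 genes (median ratio 5.0) and above vehicle 3 for 40 of 40 (8.17). Without vehicle 2, 13 muscle genes were higher in the knockout, and without knockout 3, Myom1 and Ryr1 were. The shares of all genes called in those fits are not given here.

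**Figure D3:**
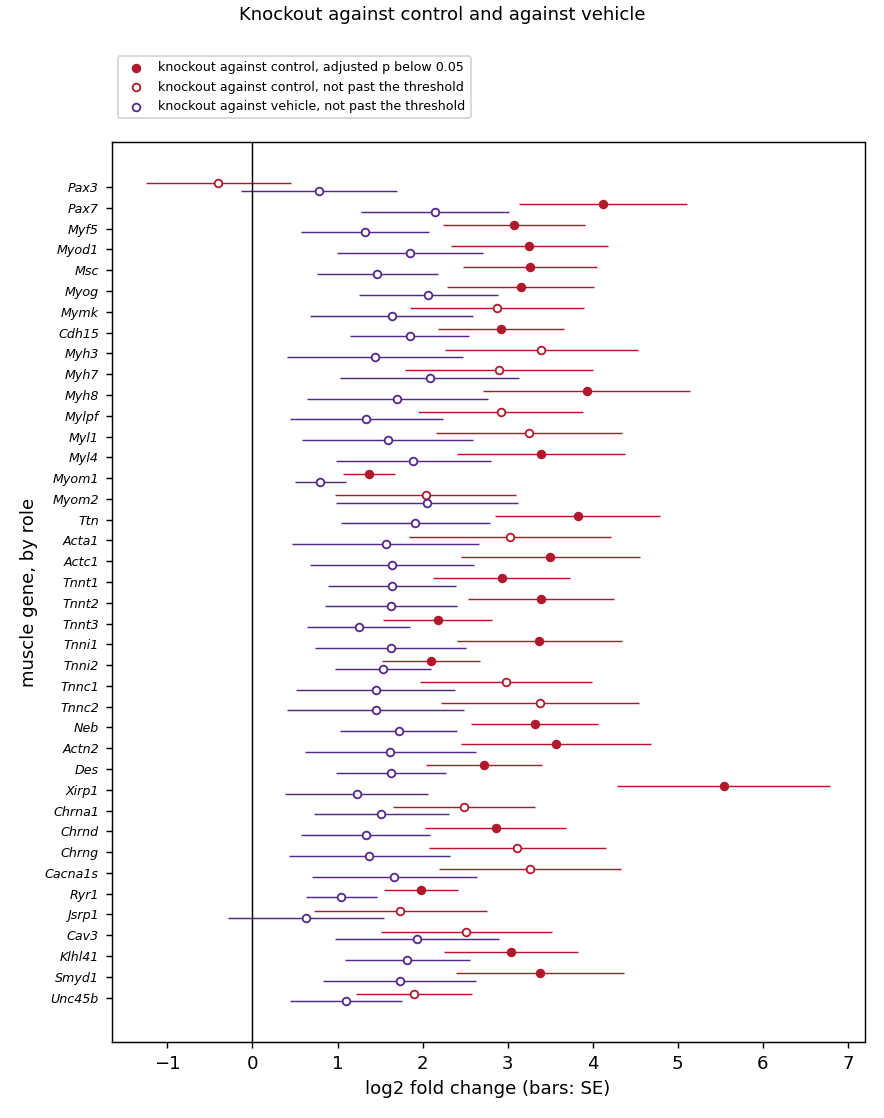
Log2 fold change of each tested muscle gene in knockout against control (red) and knockout against vehicle (purple), with bars of 1 SE; filled points passed an adjusted p below 0.05 in edgeR. All 24 filled points belong to knockout against control, the purple points lie between 0.63 and 2.14, and Pax3 is the red point below 0.

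A further comparison, AzadC against vehicle, asked what the drug changed. No muscle gene passed: the count was 0 of 40 in both directions with edgeR, DESeq2 and limma-voom, and 0 genes had an unadjusted p below 0.05 in edgeR. Over all genes tested 0.00577% were higher and 0.00577% lower after adjustment. With no adjustment, 674 of all 17335 genes tested were higher and 431 lower. In 0 muscle genes did the 3 AzadC libraries all lie above, or all below, the 3 vehicle libraries, which was so in 6.1% and 5.76% of all genes tested. The median log2 change was -0.83, and 3 genes, Pax3, Myom1 and Cav3, had positive values. Myog averaged 7.27 ± 5.6 CPM in AzadC and 13.5 ± 14.7 CPM in vehicle libraries (SD, n = 3 each), with a log2 change of -0.84 ± 0.84 (SE, adjusted p = 0.934 in edgeR). Actc1 averaged 20.2 ± 17.8 CPM in AzadC and 47.5 ± 57.4 CPM in vehicle libraries (SD, n = 3 each), with -1.19 ± 0.99 (SE, adjusted p = 0.923 in edgeR). AzadC 3 exceeded AzadC 1 in 39 of 40 genes (median ratio 3.57), and it exceeded AzadC 2 in 38 (3.81). Without vehicle 2 the log2 changes of Myog and Actc1 were 0.64 and 0.56, the opposite sign.

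Between the vehicle and control libraries, both WT, 0 of 40 muscle genes passed in either direction with edgeR (1.46% of all genes tested were higher and 2.06% lower). With no adjustment, 4 genes had a p below 0.05 in edgeR and were higher in vehicle, namely Msc, Neb, Xirp1 and Ryr1. By that rule 1544 of all 17335 genes tested were higher and 1776 lower, so the 4 do not set the muscle genes apart. DESeq2 called Xirp1, and limma-voom called 0. The median log2 change was 1.52, with 38 of 40 values positive. All 3 vehicle libraries lay above all 3 control libraries in 2 muscle genes, Xirp1 and Ryr1, and below them in 0, against 11.2% and 11.5% of all genes tested. The effect in the knockout against the control minus the effect in AzadC against the vehicle passed in 5 genes (2.2% of all genes tested), and these values are given at the end.

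Muscle genes stood out by their spread within groups. The biological coefficient of variation, the relative spread between libraries of a group beyond counting, had a median of 0.770 over the 40 genes and 0.130 over all genes tested. It was above 0.5 in 37 of the 40 (92.5%), against 4.77% of all genes tested. Myom1 was lowest at 0.262 and Ryr1 next at 0.357, and Myh3 was highest. All 4 groups showed the spread: the median SD of log2 CPM over 3 libraries was 1.25 in knockout, 1.17 in AzadC, 1.59 in vehicle and 1.69 in control, against 0.147 to 0.166 over all genes tested.

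**Figure D4:**
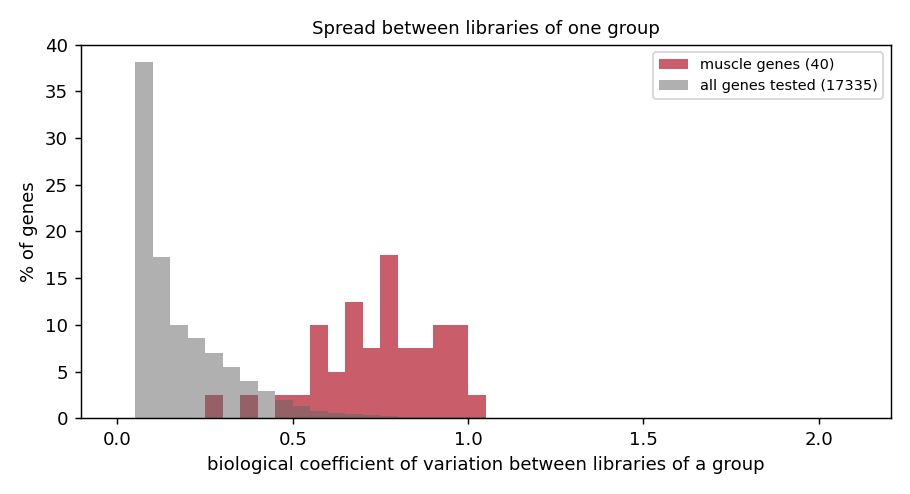
Distribution of the biological coefficient of variation between libraries of a group, as a percentage of genes, for the 40 muscle genes (red) and all 17335 genes tested (grey). The muscle genes centre on 0.770 and all genes tested on 0.130.

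In every library but control 3, precursor factors and sarcomere genes kept a proportion that ranged far less than either sum. Levels here are TPM, scaled by transcript length. The summed sarcomere level (23 thick and thin filament genes) was 1533.6, 700.3 and 262 TPM in the knockout libraries and 83.1, 78.8 and 299.9 TPM in the AzadC libraries. It was 127 TPM, 655 TPM and 85.1 TPM in the vehicle libraries and 196 TPM, 83.6 TPM and 28.7 TPM in the control libraries. The 5 precursor factors summed to 82.0, 43.1 and 21.5 TPM in the knockout libraries, 4.59, 4.56 and 14.5 TPM in the AzadC libraries, 8.55, 31.8 and 4.11 TPM in the vehicle libraries and 9.46, 5.64 and 0.86 TPM in the control libraries. Sarcomere per precursor RNA was therefore 18.7, 16.3 and 12.2 in the knockout, 18.1, 17.3 and 20.7 in AzadC, 14.9, 20.6 and 20.7 in the vehicle and 20.7, 14.8 and 33.4 in the control libraries. The value of control 3 rested on 27 precursor counts, of which 21 were of Pax3, the gene that did not follow the others. Without Pax3 the ratio was 89.7 in control 3 and 12.5 to 21.9 in the other libraries. Over the other 11 libraries the ratio ranged 1.70-fold while the sarcomere sum ranged 19.5-fold. The ratio of knockout 3 was the lowest of the 12.

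**Figure D5:**
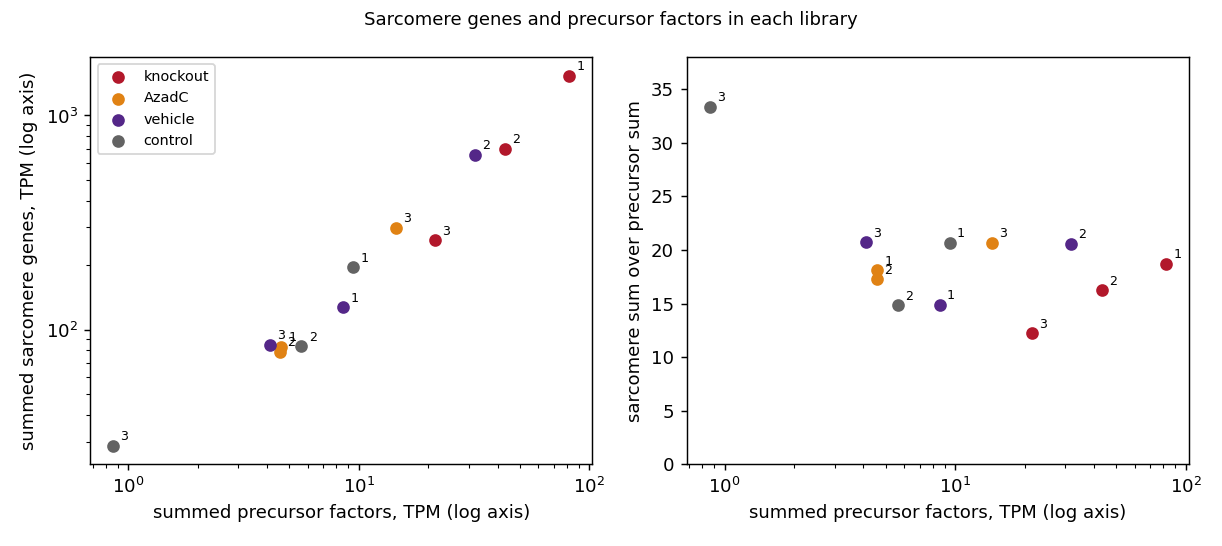
Left, summed TPM of 23 sarcomere genes against summed TPM of 5 precursor factors, both on log axes, 1 point per library numbered by replicate; right, the ratio of both sums against the precursor sum. The ratio stays between 12.2 and 20.7 in 11 libraries, whose sarcomere sums run from 78.8 to 1533.6 TPM, and control 3, with the least muscle RNA, stands at 33.4.

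In each sarcomere pair compared, the early or slow isoform was the higher one in every library with enough counts. For 6 pairs of genes, levels were compared as log2 ratios of TPM within a library, in libraries where each gene had 10 counts or more, which left control 3 out of every pair. Actc1 exceeded the adult actin Acta1 in 11 of 11 libraries, with log2 ratios of Acta1 over Actc1 from -3.61 to -2.05. Embryonic Myh3 exceeded perinatal Myh8 in all 11, with log2 ratios of Myh8 over Myh3 from -3.81 to -2.61. Slow troponins exceeded their fast partners wherever both had 10 counts or more. Log2 ratios ran from -3.65 to -0.74 for Tnni2 over Tnni1 in 8 libraries. They ran from -2.17 to -0.70 for Tnnc2 over Tnnc1 and from -4.87 to -0.83 for Tnnt3 over Tnnt1, in 10 libraries each. With fewer counts, Tnni2 was above Tnni1 in AzadC 2 (4.4 and 2.98 TPM) and in control 3 (3.31 and 0.74 TPM). Myog exceeded Myod1, with log2 ratios from 1.15 to 1.93.

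No ratio differed between groups past the threshold in exact two-sided permutation tests, with an adjusted p of 0.378 or more over 17 tests. Such exact tests cannot go below p = 0.1 with 3 libraries against 3, or p = 0.2 with 3 against 2. Tnni2 over Tnni1 stood at -3.02, -2.81 and -2.20 in knockout libraries, against -1.03 and -0.74 in control 1 and control 2. The groups did not overlap, and the mean difference was -1.79 (exact permutation p = 0.2, the smallest possible), or -0.94 when CPM replaced TPM. Myog over Myod1 was 1.77, 1.63 and 1.67 in the knockout and 1.21, 1.55 and 1.5 in the vehicle libraries, a difference of 0.27 (exact permutation p = 0.1, the smallest possible).

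Further genes of the contractile apparatus were read from a list of their own. Of 56 further contractile and fibre genes, 43 were tested, and 18 were higher and 2 lower in knockout than in control libraries. Their median log2 change was 2.26. Among all genes tested, 7.83% were higher and 6.43% lower. Without knockout 1 there were 2 higher, Rbm24 and Nrap, without knockout 2 there were 6, and without control 2 or control 3 there were 4, while the 2 lower genes, Dmd and Cacnb1, were called whichever library was left out. Atp2a1, the calcium pump of fast fibres, had 43, 20.4 and 6.78 TPM in the knockout libraries, 2.33, 2.11 and 8.04 TPM in the AzadC libraries, 2.52, 15.3 and 0.92 TPM in the vehicle libraries and 3.47, 3.11 and 0.23 TPM in the control libraries. As in most members knockout 1 was highest and control 3 lowest, and it rose by 3.19 ± 0.88 log2 units (SE, adjusted p = 0.0276 in edgeR), a call that was lost without any 1 of knockout 1, knockout 2, control 2 and control 3. Tpm2, beta-tropomyosin and the most abundant of the list, rose by 1.45 ± 0.41 log2 units (SE, adjusted p = 0.0305 in edgeR). Dmd, dystrophin, whose gene also makes shorter products outside muscle, went the other way and had 9.01, 10.8 and 11.8 TPM in the knockout libraries, 27.3, 24.9 and 21.2 TPM in the AzadC libraries, 35.5, 26.4 and 25.5 TPM in the vehicle libraries and 23.9, 34.6 and 34.3 TPM in the control libraries. All 3 knockout libraries lay below the 9 others. Dmd fell by 1.42 log2 units against the control (edgeR adjusted p = 0.000101) and by 1.15 against the vehicle (0.000566). Cacnb1, a calcium channel subunit, fell by 0.74 against the control (0.00684). The other most abundant genes of the list were Srl, sarcalumenin, which rose by 0.50 (0.0290), and Eno3, muscle enolase, with a log2 change of 0.44 (0.108). Of the adult fast heavy chains, Myh1 had 128 counts over all 12 libraries and was called higher. Its levels were 2.79, 1.43 and 0.296 CPM in knockout libraries, 0, 0 and 0.1 CPM in the AzadC libraries, 0, 0.835 and 0.0403 CPM in the vehicle libraries and 0.0298, 0.0766 and 0 CPM in the control libraries. It had 95 counts in the knockout and 3 in the control, a ratio of 40.4 with an exact 95% counting interval of 13.4 to 199.5 (edgeR adjusted p = 0.0192), and the call was lost without knockout 1 or any 1 control library. The other heavy chains were at or near 0, Myh2 and Myh13 with 3 counts each over all 12 libraries and Myh4 with 20. For the knockout effect minus the AzadC effect, 3 genes of the list passed higher and 1 lower. The higher ones were Myh1, Nrap and Trim55 (edgeR adjusted p = 0.041, 0.0403 and 0.0288), and the lower one was Dmd (0.0121). Among all genes tested, 2.2% passed in each direction.

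Of 19 further regulators, 18 were tested and 5 were higher in knockout than in control libraries, against 7.83% of all genes tested. Fgfr4, a receptor of muscle precursors, rose by 2.87 ± 0.72 log2 units (SE, adjusted p = 0.0182 in edgeR). Vgll2, a cofactor of muscle transcription, rose by 2.98 ± 0.75 log2 units (SE, adjusted p = 0.0187 in edgeR), and Mstn, myostatin, by 3.39 ± 0.98 (SE, adjusted p = 0.0349 in edgeR). Megf10, a surface protein of muscle stem cells, had a smaller log2 change of 1.09 ± 0.32 (SE, adjusted p = 0.0394 in edgeR). Without knockout 1 none of the 5 passed, without any 1 of knockout 2, control 1 and control 2 only Fgfr4 did, and without control 3 only 2 did. Among the most abundant regulators, Itm2a had a log2 change of 0.19, Eya4 of -0.09 and Mef2c of -0.45, with edgeR adjusted p of 0.333, 0.774 and 0.0701, and none of these passed. Eya4 and Mef2c are also made in facial mesenchyme or in neural crest. Against the vehicle, Itm2a alone of the 18 was higher (log2 change 0.71, edgeR adjusted p = 0.00212), where 6.7% of all genes tested were higher. Itm2a was itself lower in vehicle than in control libraries (-0.52, 0.0343), as were 2.06% of all genes tested. Lbx1, the mark of migrating limb and tongue precursors, had 1 count over all 12 libraries.

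Heart and smooth muscle share contractile genes with the members, and their own markers were read beside them. Of 10 heart markers 3 could be tested and none passed in the knockout against the control. Their summed level was 4.47 to 8.88 TPM in knockout, 9.31 to 10.5 in AzadC, 9.45 to 12.1 in vehicle and 9.44 to 12.6 in control libraries. Hand1 had 0 counts, Nkx2-5 had 1 and Tbx5 had 6 over all 12 libraries. Of 8 smooth muscle genes 1 was higher, against 7.83% of all genes tested. This was Acta2, which young skeletal muscle also makes. Acta2 had 203, 142 and 47.8 TPM in the knockout libraries, 27.9, 42.9 and 38.7 TPM in the AzadC libraries, 40.5, 75.7 and 14.8 TPM in the vehicle libraries and 36.9, 17.2 and 0.62 TPM in the control libraries. Its highest library was knockout 1 and its lowest control 3, as for the members, and it rose by 2.82 ± 0.79 log2 units (SE, adjusted p = 0.0302 in edgeR), a call that was lost without any 1 of knockout 1, knockout 2 and control 2. The other leading smooth muscle genes, Smtn, Tagln and Cnn1, had log2 changes of -0.10, 1.28 and -0.54 (edgeR adjusted p = 0.674, 0.121 and 0.654), and the smooth muscle sum was 88.1 to 268 TPM in knockout, 85.0 to 108 in AzadC, 62.5 to 124 in vehicle and 34.3 to 95.7 in control libraries.

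Markers of macrophages and cartilage also differed between knockout and control libraries. All 6 macrophage markers were higher than in the control, with a summed level of 210.2 to 248 TPM in knockout, 79.1 to 100.4 in AzadC, 57.1 to 69.7 in vehicle and 49.4 to 72.3 in control libraries. All 6 tested cartilage markers were lower, at 117 to 208 TPM in knockout, 369.7 to 526 in AzadC, 541 to 580.0 in vehicle and 332 to 1017 in control libraries. Over the same 3 knockout libraries the summed muscle level ran from 328 to 1851 TPM. Tendon, which attaches muscle, had 0 of 5 tested genes higher and 1 lower, Mkx (log2 change -0.72, edgeR adjusted p = 0.0144). Of 10 palatal mesenchyme genes 0 were higher and 2 lower, Foxf2 and Meox2. Of 8 neuron and Schwann cell genes 1 was higher, Tubb3, and 0 of 8 epithelial and 0 of 6 endothelial genes passed in either direction. Among all genes tested, 7.83% were higher and 6.43% lower by the same rule. The calls of Mkx and Tubb3 were lost without knockout 2 and likewise without control 2. Against the vehicle, all 6 macrophage markers were higher, and 3 of 6 tested cartilage markers were lower, Col2a1, Col9a1 and Sox9. Among all genes tested, 6.7% were higher and 4.13% lower in that comparison. Hapln1, a cartilage marker, was itself lower in vehicle than in control libraries (log2 change -1.80, edgeR adjusted p = 0.0243). The part of these tissues in the muscle result was not tested.

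Genes outside these lists were ranked by how closely their centred log2 CPM over the 12 libraries matched the mean of the members, as a root mean square distance. The 8 nearest of 13212 genes with enough counts were Alpk2, Lincmd1, Hjv, Arpp21, Alpk3, Mylk4, Rfx8 and Fgf5, at distances of 0.415 to 0.561. The members themselves had a median distance of 0.572 and all candidates of 1.57. The 8 genes were picked for their small distances, so these values are not a test of their likeness to muscle genes. Among members Tnnt1 was nearest at 0.157 and Pax3 farthest at 1.83. Alpk2, the nearest, had 10.3, 6.59 and 1.3 CPM in the knockout libraries, 0.709, 0.727 and 1.84 CPM in the AzadC libraries, 1.92, 5.33 and 0.766 CPM in the vehicle libraries and 1.19, 0.766 and 0.0571 CPM in the control libraries. As in most members, knockout 1 was highest, control 3 lowest and vehicle 2 above knockout 3, but vehicle 1 lay above knockout 3 and AzadC 3, unlike in the mean of the members.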

How the data were processed

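Libraries made with a NuGen mRNA kit from RNA of gestational day 12 palatal shelves were sequenced, per the labels' protocols. The authors deposited expected counts per gene and TPM for 56691 genes in each of 12 libraries, per the file headers. Per the submitters' processing notes, the build was mm10 and the tools were RSEM 1.3.1, STAR 2.7.0, Trim Galore, DESeq2 and FastQC. RSEM divides shared reads among genes, and values can hence be fractions: 5.04% of the members' expected counts were not whole within 0.005, and genes with close relatives (myosin heavy chains, actins) are less certain one by one. The strand setting is not given in the sources used here. Coordinates came from GENCODE M21 and promoters from RefSeq on GRCm38.p6. Depth was 12640536 to 33113790 counts.

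The expected counts were rounded and fitted in R 4.3.3 with edgeR 4.0.16: filterByExpr (17335 genes), TMM scaling (0.985 to 1.01), 1 mean per group over 12 libraries, glmQLFit and glmQLFTest, with Benjamini-Hochberg adjustment over all genes tested at 0.05. CPM are TMM-scaled. An SE is the absolute log2 change over the square root of the F statistic. DESeq2 1.42.0, limma-voom (limma 3.58.1), other scalings and filters, a 1.2-fold test, a replicate block, the compared groups alone and leaving out each library were alternatives. The code was tested on simulated counts. Count intervals (95%) and the floor of 3 counts per group cover counting error only, and p-values cover the spread between pooled libraries. Group labels came from the sample labels, no 2 libraries of a group agreed within sampling noise, and no library was dropped.

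The members, the lists and the tests were chosen with earlier results of these data known. Named were all members, up to 4 of the most abundant genes of each other list (regulators, contractile genes, heart, smooth muscle, tendon, mesenchyme, cartilage, neuron and Schwann cell, epithelium, endothelium, macrophage), not all of them printed, and the 8 nearest profiles. Atp2a1, Rbm24, Nrap, Trim55, the adult myosins, Lbx1, the heart factors and called regulators were named after their values were seen. Some of the listed regulators are not reported here by name.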

Additional observations from a re-analysis of the deposited data

Results flagged for a closer look

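The difference between the effects of both interventions was tested in itself, as the log2 change in knockout against control minus the log2 change in AzadC against vehicle, and 5 muscle genes passed (edgeR adjusted p below 0.05 over all genes tested, which 2.2% of those genes reached in this direction). Pax7, the precursor factor, had a difference of 5.19 log2 units (SE 1.35, adjusted p = 0.0476 in edgeR), from changes of 4.12 in the knockout and -1.07 in AzadC. Msc had a difference of 4.33 (SE 1.08, adjusted p = 0.0408 in edgeR), from 3.27 and -1.06. Tnnt2 had a difference of 4.65 (SE 1.19, adjusted p = 0.0443 in edgeR), from 3.39 and -1.25, and Neb one of 4.22 (SE 1.02, adjusted p = 0.0359 in edgeR), from 3.32 and -0.90. Xirp1 had a fitted difference of 6.69 (edgeR adjusted p = 0.0352), which rests on 2 control counts and depends on how the fit treats low counts.

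Those genes span a precursor factor, a repressor, a troponin, nebulin and a Z-disc protein, and 39 of the 40 tested muscle genes had a positive difference, Pax3 being the exception. In none of the 5 did the AzadC change pass by itself. All 5 were also called by DESeq2, and none of them by limma-voom, in the test against a 1.2-fold change or with the replicate block. In edgeR 0 muscle genes passed for this difference without any 1 of knockout 1, knockout 2, AzadC 1, AzadC 2, vehicle 2, control 2 and control 3.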

How the results depend on the processing

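The number of muscle genes called moved with the method. For knockout against control 24 were higher, and 38 without the low count filter, 10 with limma-voom, 14 against a 1.2-fold change, and 4 to 35 when each library was left out. RLE and upper quartile scaling gave 24 each, a mean above 1 CPM 23, DESeq2 22 and the compared groups alone 22. For knockout against vehicle the count of 0 became 22 without the filter, 1 with DESeq2 and 0 to 13 without 1 library. For vehicle against control it became 12 without the filter and 1 with DESeq2. For the difference of the knockout and AzadC effects the count of 5 became 37 without the filter, 13 with DESeq2, 0 with limma-voom, 0 against a 1.2-fold change, 4 at a mean above 1 CPM and 0 to 11 without 1 library. No setting called a muscle gene lower in any comparison or called one in AzadC against vehicle. The shares of all genes called in the alternative settings are not given here. Whether the muscle counts shifted more than those of all genes is therefore not shown. The cause of these shifts was not tested.

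The labels give no pairing of the replicate numbers, and the main fit used none. In knockout against control, deviations of same-numbered libraries from their group means correlated at 0.277, 0.081 and 0.235. Unlike numbers there gave -0.297 to 0.076. Same-numbered values were -0.037, 0.027 and 0.154 for knockout against vehicle, and 0.028, -0.097 and -0.063 for AzadC against vehicle. They were 0.039, 0.106 and 0.136 for vehicle against control. Whether the numbers pair the libraries was not settled by these values. With the replicate block 18 genes were higher in knockout against control, and 0 for the difference.

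Msc, Myog, Cdh15, Myom1, Tnnt2, Neb, Des, Xirp1 and Ryr1 were called in knockout against control under every alternative, other than leaving out a library, in which they were tested. When each library was left out, the log2 change of Pax3 in knockout against control ran from -1.19 without knockout 3 to 0.015 without knockout 1, against -0.40 with all. Those in AzadC against vehicle turned positive without vehicle 2 and were lowest without AzadC 3, from -1.80 to 0.43 for Myod1, -1.75 to 0.64 for Myog, -2.52 to 0.80 for Myh3 and -2.27 to 0.56 for Actc1. That of Myog in vehicle against control ran from -0.39 without vehicle 2 to 1.58 without control 1.

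Among the within-library ratios, leaving out 1 library changed the sign of some differences in log2 units. Tnni2 over Tnni1 ran from -1.69 to 0.98 for knockout against vehicle and from -1.45 to 1.22 for AzadC against vehicle. Tnnc2 over Tnnc1 ran from -0.053 to 0.45 for knockout against control and from -0.24 to 0.63 for knockout against vehicle. For AzadC against vehicle, Tnnt3 over Tnnt1 ran from -0.26 to 1.94 and Myog over Myod1 from -0.094 to 0.30.

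With 3 libraries per group and SDs above 1 log2 unit, changes well beyond 4-fold can miss the threshold, and the genes under 100 counts per group, such as Pax3, Xirp1, Jsrp1 and Cav3, are limited by depth as well.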
